A study of Mus musculus with 8 samples.

Results

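The genes described here are the cytochrome P450 (Cyp) genes of the mouse colon. They were taken from the deposited expression table by symbol, as every gene whose name has a family number, a subfamily letter and a gene number, apart from Cyp1a1, Cyp1b1, Cyp24a1, Cyp27b1 and Cyp11a1. This gave 65 of the 18262 listed genes. Colon tissue of wild-type mice was profiled by poly(A) RNA sequencing in 8 libraries, 4 from mice with colitis caused by dextran sulfate sodium (DSS), which damages the epithelium of the large bowel, and 4 from mice given DSS and ganoderic acid A (GAA), a triterpenoid of Ganoderma fungi. Replicates are numbered 1, 2, 4 and 5 in either group. The titles and the treatment protocol give 20 mg/kg for all 4 GAA libraries, while their treatment labels read 20, 21, 22 and 23 mg/kg, and they were kept as 1 group. The labels give neither the age of the mice nor whether each library is a separate animal, so p-values measure the spread between these libraries, and colon without colitis was not analysed here.

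Cytochrome P450 enzymes are haem proteins that insert 1 atom of oxygen into a substrate, with electrons passed on by P450 oxidoreductase in the endoplasmic reticulum or by ferredoxin in mitochondria. Families 2 and 3 oxidise drugs, plant compounds and polyunsaturated fatty acids, and family 4 hydroxylates the ends of fatty acids and of eicosanoids such as leukotrienes. The other families act on cholesterol, bile acids, steroid hormones and retinoic acid. In the intestine the drug-metabolising members are made mainly by the absorptive epithelium, where nuclear receptors set much of their transcription.

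Of the 9 P450 genes that were higher in DSS + GAA colon, 7 came from the drug-metabolising families 2 and 3. These families hold 17 of the 30 tested genes, and 4 of the 7 risers are Cyp2d genes of similar sequence. The sterol and retinoic acid hydroxylases that passed the test were Cyp7b1, Cyp27a1 and Cyp26b1, all lower. The Cyp27a1 call ended under 12 of 18 alternative fits. Levels are in TPM, transcript counts scaled for transcript length and for the library total. Of the 65 genes, 30 had at least 1 TPM in at least 4 of the 8 libraries and were tested, and 35 were left out by this filter. In the test (limma on log2(TPM + 1), Benjamini-Hochberg adjusted p under 0.05 over 14217 genes), 9 of the 30 rose, 6 fell and 15 did not pass. Over all tested genes, 5.96% rose and 28.2% fell, 34.1% in either direction. The groups did not overlap for 8 of the 30 with DSS + GAA above and for 5 with DSS + GAA below, beside 5.31% and 27.6% of all tested genes. The median log2 fold change was 0.22 for the 30 genes and -0.25 for all tested genes. Of the 30, 2 had fewer than 4 libraries at 1 TPM or more in DSS, and 5 in DSS + GAA. Among the genes that passed, Cyp2c23 and Cyp26b1 met the filter through the 4 libraries of the group in which they were higher, with 2 such libraries in the other group, so the filter favours a difference for both. The split of calls depended on how the libraries are scaled to each other, at 11 higher and 4 lower with trimmed mean scaling (11.6% and 13.3% of all genes), 10 and 2 with quantile normalization (11.8% and 11.3%) and 12 and 2 with median centring (15.2% and 9.2%). No call turned to the opposite direction under these 3 scalings.

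**Figure D1:**
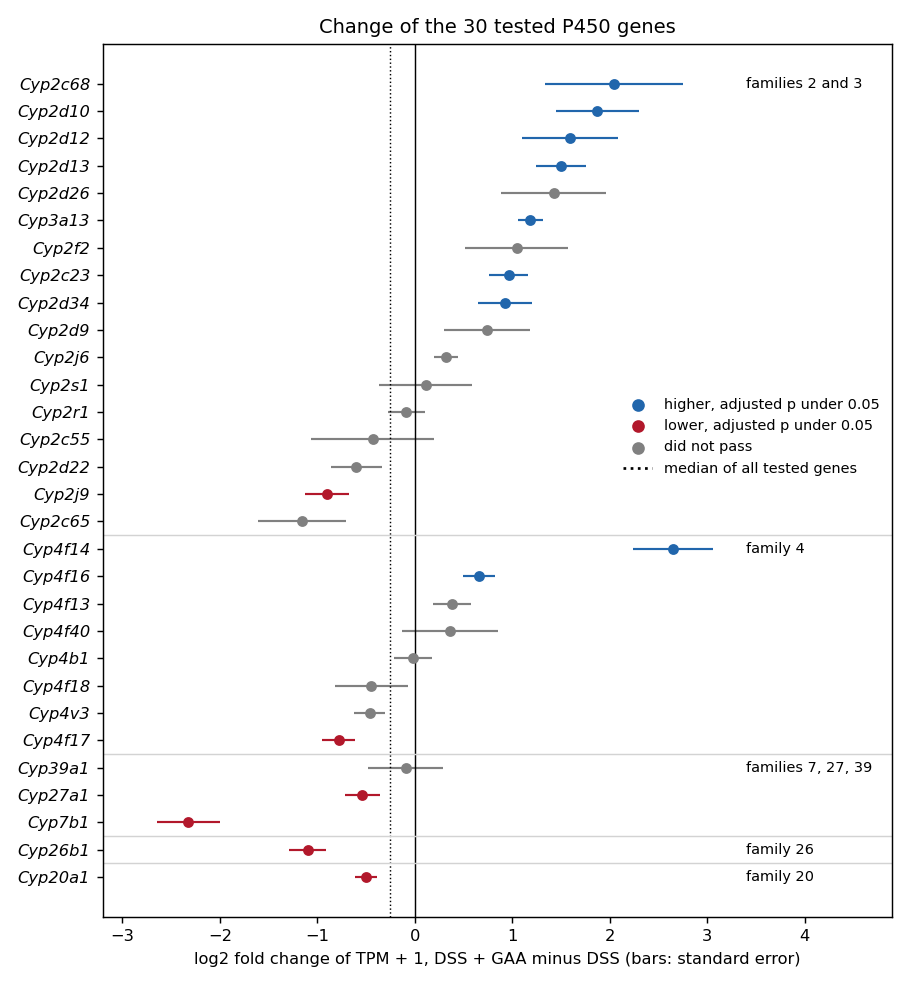
Log2 fold change (x axis, on the log2(TPM + 1) scale, DSS + GAA minus DSS) of the 30 tested P450 genes, ordered by family and size, with standard errors as bars; blue and red points passed the test, grey ones did not, and the dotted line is the median of all tested genes at -0.25. Families 2 and 3 hold 7 of the 9 risers and 17 of the 30 tested genes, and the genes of families 7, 26, 27 and 20 that passed lie on the left.

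The summed level of all 65 genes was 863, 767, 1145 and 1421 TPM in DSS replicates 1, 2, 4 and 5, and 1856, 1850, 1512 and 1992 TPM in the DSS + GAA replicates of the same numbers. All 4 DSS + GAA libraries lay above all 4 DSS libraries. Its mean was 1049 ± 295 TPM against 1802 ± 204 TPM (SD, 4 libraries each). The total was concentrated in few genes: Cyp2d34 alone made up 35.6% of it in DSS and 37.5% in DSS + GAA, and the 5 most abundant genes 61.5% and 68.8%. The Cyp2d subfamily summed to 57.7% of P450 transcripts in DSS and 65.3% in DSS + GAA. The sterol and bile acid families went the other way, from 9.10% to 3.08% of a total that itself rose. Their summed level was 95.5 ± 13.3 TPM in DSS and 55.5 ± 5.76 TPM in DSS + GAA.

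**Figure D2:**
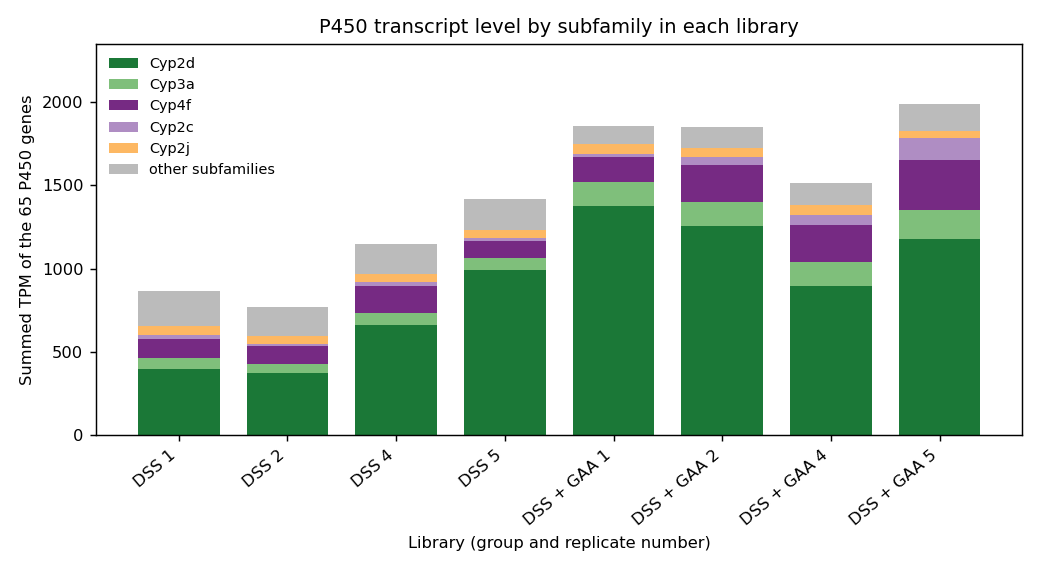
Summed TPM of the 65 P450 genes (y axis, from 0) in each of the 8 libraries (x axis), stacked by subfamily. Cyp2d genes form the largest block in every library, and the total runs from 767 to 1421 TPM in DSS and from 1512 to 1992 TPM in DSS + GAA.

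Among the xenobiotic-metabolising families 2 and 3, 17 of 36 genes were tested, of which 7 rose, 1 fell and 9 did not pass. Cyp3a13, a member of the drug-oxidising CYP3A subfamily found in mouse intestine, had the smallest p of all 30. It is on chromosome 5, 137892932 to 137921619, minus strand (coordinates here and below are GRCm38, GENCODE vM21). Its level was 64.7, 55.1, 70.7 and 74.0 TPM in DSS and 144, 144, 143 and 174 TPM in DSS + GAA. All 4 DSS + GAA libraries lay well above every DSS library, 3 of them close together and replicate 5 higher. The rise was 1.19 ± 0.13 in log2 units (limma adjusted p = 0.00425), and the call held under all 18 alternatives run. The other 4 listed Cyp3a genes, Cyp3a25, Cyp3a41a, Cyp3a44 and Cyp3a57, lie in a separate cluster on chromosome 5, 145345279 to 146009618. They were near 0 in both groups. Each was listed at 0 in every DSS + GAA library and had a single value above 0 in DSS, between 0.042 and 0.088 TPM.

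The Cyp2d genes, relatives of the human drug-metabolising enzyme CYP2D6, gave 4 risers and 0 falls among 7 tested of 9 listed. Of the 9, 8 could be placed, in 1 cluster on chromosome 15, 82370527 to 82794294. Cyp2d10 was at 36.3, 24.0, 82.2 and 103 TPM in DSS and at 251, 221, 138 and 185 TPM in DSS + GAA (log2 fold change 1.87 ± 0.43, limma adjusted p = 0.0124). Cyp2d13 was at 18.3, 11.4, 25.9 and 26.1 TPM in DSS and at 48.9, 60.3, 49.3 and 72.4 TPM in DSS + GAA (1.5 ± 0.26, limma adjusted p = 0.00601). Cyp2d12 was at 18.8, 11.9, 41.1 and 70.1 TPM in DSS and at 71.9, 76.5, 75.8 and 145 TPM in DSS + GAA (1.59 ± 0.49, limma adjusted p = 0.0342). In these 3 genes the groups did not overlap, although for Cyp2d12 DSS replicate 5 came close to the lowest DSS + GAA library.

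Cyp2d34, the most abundant P450 transcript, was at 247, 257, 402 and 587 TPM in DSS and at 820, 740, 538 and 602 TPM in DSS + GAA. DSS replicate 5 lay above DSS + GAA replicate 4, so the groups overlapped. The rise of 0.93 ± 0.28 on the log2 scale passed (limma adjusted p = 0.0323). Leaving out DSS replicate 1, 2 or 4 ended the call (adjusted p = 0.0978, 0.0831 and 0.0528), as did leaving out DSS + GAA replicate 1 (0.0511) or 2 (0.0833) or quantile normalization (0.0654). Cyp2d12 missed the threshold in 5 of the 8 fits that leave out a library (DSS replicate 1 at 0.104 and 2 at 0.0736, DSS + GAA replicate 2 at 0.0657, 4 at 0.0580 and 5 at 0.0758), while Cyp2d10 and Cyp2d13 passed under every alternative run.

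The other 3 tested Cyp2d genes did not pass. Cyp2d9 was at 83.5 ± 58.9 TPM in DSS and 122 ± 36.1 TPM in DSS + GAA (log2 fold change 0.74 ± 0.44), and Cyp2d26 at 2.30 ± 0.94 and 9.93 ± 7.72 TPM (1.43 ± 0.54). Cyp2d22 had a negative value, at 27.7 ± 6.54 and 18.5 ± 7.06 TPM (-0.60 ± 0.26). Cyp2d9 passed as higher without DSS replicate 5 (limma adjusted p = 0.0366), Cyp2d26 as higher with median centring (0.0464), array quality weights (0.0114) and without DSS + GAA replicate 1 (0.00190), and Cyp2d22 as lower without DSS + GAA replicate 5 (0.0300). Cyp2d genes share sequence with each other to differing extents, so reads can be assigned to the wrong one. Of all stretches of 50 bases in the longest coding transcript, 40.5% in Cyp2d10 also occur letter for letter in another gene, most often Cyp2d11, as do 29.0% in Cyp2d9, 17.9% in Cyp2d12 and 13.7% in Cyp2d34. The share was 10.5% in Cyp2d26 and 6.14% in Cyp2d22. These shares do not measure how uncertain a value is, and how shared reads were handled is not given. Reads moved among Cyp2d genes would leave the sum over the subfamily unchanged, while shared reads left out would lower it. That sum was 397, 371, 660 and 991 TPM in DSS and 1375, 1255, 898 and 1178 TPM in DSS + GAA, with DSS replicate 5 above DSS + GAA replicate 4.

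Epithelial markers moved with the Cyp2d genes. The 11 colonocyte markers, all of which were detected, had sums of 9124, 9428, 13115 and 14474 TPM in DSS, against 21318, 17063, 12966 and 14020 TPM in DSS + GAA. DSS replicates 1 and 2 were the lowest and DSS + GAA replicates 1 and 2 the highest for the marker sum and for the Cyp2d sum alike. Of the 11 markers, 3 rose and 1 (Car1) fell, beside 5.96% and 28.2% of all tested genes. The 7 goblet cell markers had sums between 6892 and 17472 TPM in DSS, against 12777 to 25295 TPM in DSS + GAA. The part of the epithelial share in the Cyp2d values was not tested, and in bulk tissue fewer cells of a type and less RNA per cell cannot be told apart.

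**Figure D3:**
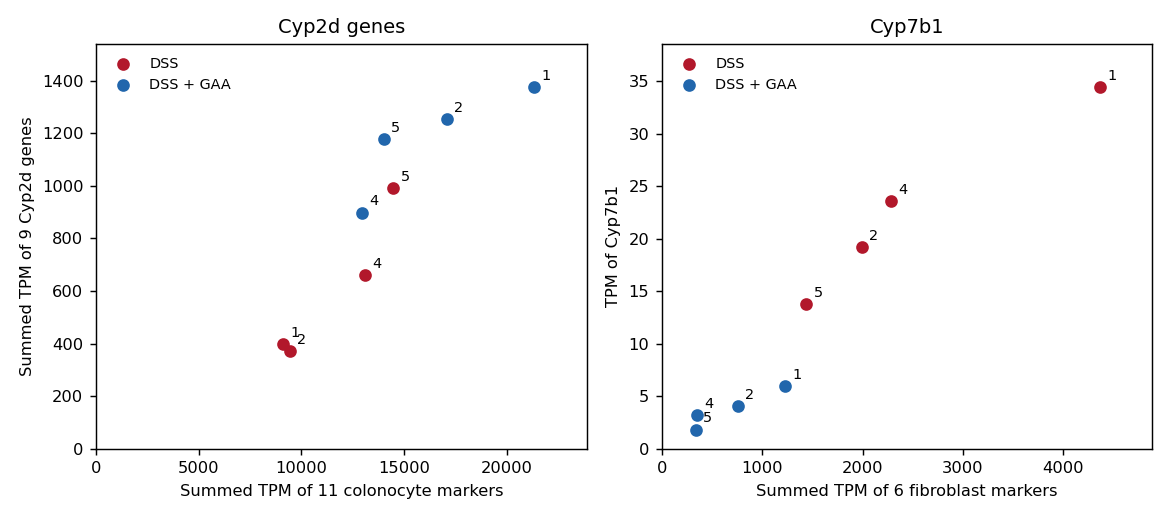
Left, summed TPM of the 9 Cyp2d genes (y axis) against that of 11 colonocyte markers (x axis); right, TPM of Cyp7b1 (y axis) against the summed TPM of 6 fibroblast markers (x axis). Each point is 1 library with its replicate number, red for DSS and blue for DSS + GAA; DSS replicates 1 and 2 are lowest on both axes on the left, and DSS + GAA replicates 4 and 5 on the right.

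The Cyp2c genes were split. Of 9 listed, 4 were tested, 2 rose and 0 fell. Cyp2c23, an arachidonic acid epoxygenase set apart from the others on chromosome 19 (44005022 to 44029208, minus strand), was at 0.93, 0.62, 1.51 and 1.08 TPM in DSS and at 2.91, 3.89, 2.00 and 3.13 TPM in DSS + GAA. The groups did not overlap (log2 fold change 0.96 ± 0.20, limma adjusted p = 0.00932). Cyp2c68 (chromosome 19, 39688834 to 39741054, minus strand) was at 8.96, 4.49, 12.4 and 6.54 TPM in DSS and at 6.76, 40.7, 39.2 and 122 TPM in DSS + GAA. DSS + GAA replicate 1 lay among the DSS libraries and the other 3 lay above all of them. The rise just passed (2.05 ± 0.70, limma adjusted p = 0.0499), and its call ended under 12 of 18 alternatives, with adjusted p-values up to 0.121. Those 12 include 7 of the 8 fits that leave out a library: DSS replicate 1 at 0.104, 2 at 0.121, 4 at 0.0666 and 5 at 0.0957, and DSS + GAA replicate 2 at 0.110, 4 at 0.0965 and 5 at 0.0916. Without DSS + GAA replicate 1 the adjusted p was 0.00172.

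Cyp2c65 and Cyp2c55, both expressed in mouse intestine, did not pass. Cyp2c65 was at 8.15, 4.06, 7.09 and 7.02 TPM in DSS and at 2.88, 0.87, 7.27 and 1.02 TPM in DSS + GAA (log2 fold change -1.16 ± 0.45, limma adjusted p = 0.0725). Cyp2c55 was at 5.42, 1.25, 3.71 and 6.95 TPM in DSS and at 1.65, 0.96, 12.8 and 1.28 TPM in DSS + GAA (-0.43 ± 0.63). For both genes DSS + GAA replicate 4 was the highest of its group, and the other 3 were low. Cyp2c65 passed as lower without that library (adjusted p = 0.0184) and with array quality weights (0.0198).

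Promoters were searched for sequence elements, which the choice of genes did not use. RefSeq promoter windows (GRCm38.p6) were at hand for 47 of the 65 genes, and the 250 bases before each start were searched on both strands for CAAAGTCCA, an element bound by the nuclear receptor HNF4. It was found in 8 of 53 P450 windows (15.1%) and in 126 of 32851 windows of all genes (0.384%). The 8 windows are shown because 6 of them belong to Cyp2c genes, of which Cyp2c68 rose and Cyp2c65 did not. Cyp2c55 and Cyp2c66 had windows without it, and Cyp2c23 had no window. The printed stretches are 60 bases each, 5′ to 3′ on the gene's strand, with the element in capitals.
Cyp2c68: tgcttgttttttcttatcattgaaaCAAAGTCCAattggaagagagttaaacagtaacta
Cyp2c67: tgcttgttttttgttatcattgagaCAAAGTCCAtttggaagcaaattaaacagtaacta
Cyp2c40: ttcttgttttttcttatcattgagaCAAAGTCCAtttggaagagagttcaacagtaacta
Cyp2c69: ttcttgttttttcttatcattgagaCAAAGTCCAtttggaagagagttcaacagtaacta
Cyp2c65: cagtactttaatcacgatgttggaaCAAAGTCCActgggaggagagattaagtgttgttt
Cyp2c70: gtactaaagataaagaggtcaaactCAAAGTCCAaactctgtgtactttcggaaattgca
Cyp8b1: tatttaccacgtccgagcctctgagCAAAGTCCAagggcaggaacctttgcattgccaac
Cyp3a41a: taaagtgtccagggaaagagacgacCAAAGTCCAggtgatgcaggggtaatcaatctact
The windows lie at chr19:39741144-39741203 (Cyp2c68, minus strand), chr19:39649133-39649192 (Cyp2c67, minus), chr19:39812825-39812884 (Cyp2c40, minus), chr19:39886810-39886869 (Cyp2c69, minus), chr19:39060865-39060924 (Cyp2c65, plus), chr19:40187316-40187375 (Cyp2c70, minus), chr9:121916338-121916397 (Cyp8b1, minus) and chr5:145720197-145720256 (Cyp3a41a, minus). Cyp2c40 and Cyp2c69 have the same 60 letters, and Cyp2c68 shares 56 of 60 with each of them and 54 of 60 with Cyp2c67, so these 4 windows are near-copies and not separate observations. Cyp2c65 and Cyp2c68 carry the same 9 capitals but share 35 of 60 letters. Of the 8 genes, Cyp2c68 rose, Cyp2c65 did not pass, and the other 6 were below the filter, with means over 8 libraries of 0.62 TPM for Cyp2c67 and 0.59 TPM for Cyp8b1. Cyp2c67 was at 0.20, 0.10, 0.30 and 0.15 TPM in DSS and at 0.05, 0.84, 0.71 and 2.66 TPM in DSS + GAA, with DSS + GAA replicate 1 lowest as for Cyp2c68. Of the 50-base stretches of Cyp2c68, 43.3% occur in another gene, most often Cyp2c40. Of the 5 risers with a window, 1 had the element, Cyp2c68, whose call ended under 12 of 18 alternatives. Of the 4 fallers with a window, 0 had it. The receptor gene Hnf4a rose from 162 ± 50.4 to 315 ± 37.9 TPM (0.99 ± 0.21, limma adjusted p = 0.00953). The part of Hnf4a in the P450 values was not tested. Other motifs searched in the same way were the nuclear receptor half-site AGGTCA, in 8 P450 windows (15.1%), the half-site AGTTCA, in 7 (13.2%, beside 11.8% of all windows), the TATA box letters TATAAA, in 16 (30.2%, beside 12.4%), and the longer ROR response element, which contains AGGTCA, in 0 (beside 0.177%). AGGTCA was found in 4607 of all 32851 windows.

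The Cyp2j genes, which epoxidise arachidonic acid, lie next to each other on chromosome 4 (96027534 to 96591578). Cyp2j9 fell, from 12.3, 6.86, 7.64 and 12.01 TPM in DSS to 5.60, 5.36, 3.48 and 4.16 TPM in DSS + GAA (log2 fold change -0.90 ± 0.23, limma adjusted p = 0.0166). The groups did not overlap, and the call ended with quantile (0.0999) or median (0.0718) scaling, or when DSS replicate 1 was left out (0.0576). Its neighbour Cyp2j6 was at 41.0, 39.4, 42.5 and 34.0 TPM in DSS and at 53.8, 48.6, 52.3 and 42.6 TPM in DSS + GAA. The DSS + GAA libraries lay just above the DSS libraries (0.32 ± 0.12), which did not pass on the deposited scale (limma adjusted p = 0.0642) and passed with trimmed mean (0.0129), quantile (0.0172) and median (0.00942) scaling. Cyp2s1, an epithelial P450 outside the liver, was at 20.4, 17.2, 27.4 and 21.6 TPM in DSS and at 6.78, 26.6, 36.4 and 41.2 TPM in DSS + GAA, with DSS + GAA replicate 1 lowest of all 8. Its log2 fold change was 0.11 ± 0.47, its sign turned without DSS + GAA replicate 4 or 5, and it passed as higher without DSS + GAA replicate 1 (limma adjusted p = 0.0223).

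In family 4, the fatty acid and eicosanoid hydroxylases, 8 of 15 genes were tested, of which 2 rose, 1 fell and 5 did not pass. Cyp4f14, an enzyme that inactivates leukotriene B4, had the largest rise of the 30 genes. It is on chromosome 17, 32905070 to 32917342, minus strand. Its level was 10.9, 6.95, 26.9 and 9.46 TPM in DSS and 46.02, 87.1, 75.5 and 133 TPM in DSS + GAA, with no overlap. The mean was 13.6 ± 9.05 TPM in DSS and 85.4 ± 36.2 TPM in DSS + GAA, a log2 fold change of 2.65 ± 0.41 (limma adjusted p = 0.00531), and the call held under all 18 alternatives run. Cyp4f16 rose from 25.3, 19.1, 32.5 and 23.3 TPM to 40.6, 39.7, 34.6 and 43.3 TPM (0.66 ± 0.16, limma adjusted p = 0.0155). Every DSS + GAA library was higher than every DSS library, though DSS replicate 4 came close to DSS + GAA replicate 4.

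Neighbours in the same cluster (chromosome 17, 32452723 to 32947402, 7 listed genes) did not share a direction. Cyp4f17, which lies before Cyp4f16 on the same strand, fell from 5.78, 6.03, 4.92 and 7.70 TPM to 3.69, 2.89, 2.70 and 3.19 TPM without overlap (log2 fold change -0.78 ± 0.17, limma adjusted p = 0.0105). It missed the threshold with quantile (0.166) and median (0.0795) scaling. Cyp4f13 was at 20.1 ± 5.67 and 25.8 ± 2.94 TPM (0.38 ± 0.19, limma adjusted p = 0.153) and passed as higher with the trimmed mean (0.0445), quantile (0.0431) and median (0.0302) scalings and when DSS replicate 5 was left out (0.0455). Cyp4f40 was at 44.8 ± 20.1 and 59.5 ± 28.7 TPM (0.36 ± 0.49).

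Cyp4f18, a leukotriene B4 hydroxylase of neutrophils on chromosome 8, was at 13.6, 12.3, 13.4 and 12.1 TPM in DSS and at 19.4, 13.2, 4.61 and 5.54 TPM in DSS + GAA. Its DSS values were close together, and the DSS + GAA values lay on both sides of them (log2 fold change -0.45 ± 0.38, limma adjusted p = 0.379). Of the 10 neutrophil markers, 8 fell, beside 28.2% of all tested genes, with marker sums between 2147 and 6514 TPM in DSS against 198 to 719 TPM in DSS + GAA. The other 2, Csf3r (14.1 and 7.72 TPM) and Ltf (64.2 and 184 TPM), did not pass. The 8 macrophage markers, of which 2 fell, had sums of 490, 562, 508 and 471 TPM in DSS and 630, 403, 180 and 160 TPM in DSS + GAA. The part of either cell type in the Cyp4f18 values was not tested. Cyp4v3, which hydroxylates fatty acids in many tissues, was at 21.9 ± 3.85 and 15.6 ± 2.47 TPM (-0.46 ± 0.16, limma adjusted p = 0.0529). It passed as lower with array quality weights (0.0346) and when DSS replicate 4 (0.0408) or DSS + GAA replicate 1 (0.0236) was left out. The 4 Cyp4a genes, classic targets of the lipid sensor PPAR alpha, were all below the filter.

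**Figure D4:**
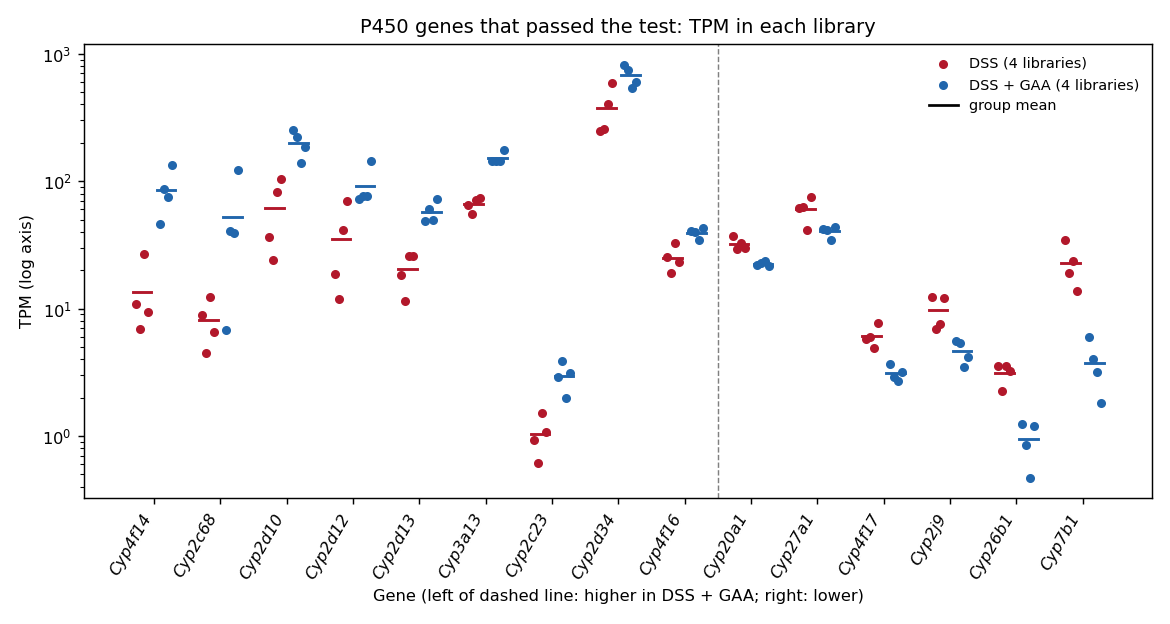
TPM (y axis, log scale) of the 15 P450 genes that passed the test, in each DSS library (red) and each DSS + GAA library (blue), with lines for the group means; genes left of the dashed line were higher in DSS + GAA and genes right of it lower. Groups overlap for Cyp2c68, Cyp2d34 and Cyp27a1 and not for the other 12.

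In the sterol and bile acid families (7, 8, 27, 39 and 46), 3 of 6 genes were tested, of which 2 fell. Cyp7b1, which hydroxylates oxysterols and helps to make the ligand of the lymphocyte receptor Gpr183, had the largest fall of the 30 genes. It is on chromosome 3, 18071950 to 18243338, minus strand. Its level was 34.4, 19.2, 23.6 and 13.8 TPM in DSS and 5.94, 4.05, 3.20 and 1.82 TPM in DSS + GAA. The lowest DSS library was still well above the highest DSS + GAA library, the mean was 22.7 ± 8.75 TPM in DSS and 3.75 ± 1.72 TPM in DSS + GAA, and the fall was -2.32 ± 0.32 in log2 units (limma adjusted p = 0.00510). The call held under all 18 alternatives run.

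The 6 fibroblast markers summed to 4363, 1993, 2282 and 1440 TPM in DSS and 1232, 761, 352 and 342 TPM in DSS + GAA. This sum put the 8 libraries in the same order as Cyp7b1. Dcn was the largest part of it, at 3317, 1393, 1398 and 1047 TPM in DSS and 575, 363, 182 and 204 TPM in DSS + GAA. The groups did not overlap for Dcn and Lum, and did for Col1a1, Col1a2, Col3a1 and Pdgfra. Of the 6, 2 fell, beside 28.2% of all tested genes, and 4 did not pass. The part of these markers in the Cyp7b1 values was not tested. Ch25h, which makes the oxysterol that Cyp7b1 acts on, also fell, from 23.0 ± 7.16 to 6.59 ± 4.06 TPM (log2 fold change -1.74 ± 0.34, limma adjusted p = 0.00809). Hsd3b7, the next enzyme of that route, was at 27.1 ± 3.14 and 23.0 ± 2.29 TPM, and Gpr183 at 2.65 and 2.30 TPM, and neither passed. Of the 8 listed oxysterol and bile acid partner genes, 6 were tested, and Ch25h was the 1 that fell. The most abundant of them, the sterol carrier gene Scp2, was at 150 ± 11.5 and 178 ± 17.8 TPM and did not pass.

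Cyp27a1, the mitochondrial sterol hydroxylase of the alternative bile acid route, was at 61.7, 63.0, 41.5 and 75.2 TPM in DSS and at 42.4, 41.5, 34.4 and 44.0 TPM in DSS + GAA. DSS replicate 4 lay among the DSS + GAA libraries, and the other 3 DSS libraries lay above them. The fall was -0.54 ± 0.18 in log2 units (limma adjusted p = 0.0445), and the call ended under 12 of 18 alternatives, with adjusted p-values up to 0.394. They include each scaling and 6 fits that leave out a library: DSS replicate 1 at 0.113, 2 at 0.0950 and 5 at 0.0989, and DSS + GAA replicate 2 at 0.0911, 4 at 0.105 and 5 at 0.0618. Cyp39a1, an oxysterol hydroxylase, was at 11.9, 9.35, 11.7 and 7.20 TPM in DSS and at 4.13, 6.65, 13.6 and 17.7 TPM in DSS + GAA, and did not pass (-0.09 ± 0.38). Its DSS + GAA libraries lay on both sides of the DSS libraries.

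In family 26, whose enzymes break down retinoic acid, 1 of 3 genes was tested. Cyp26b1 (chromosome 6, 84571414 to 84593908, minus strand) fell from 3.54, 2.27, 3.52 and 3.23 TPM to 1.25, 0.86, 0.47 and 1.199 TPM. The groups did not overlap (log2 fold change -1.10 ± 0.19, limma adjusted p = 0.00616), and the call held under every alternative in which it was tested; with a minimum of 5 TPM it was not. Of 13 listed retinoid genes, 10 were tested, 4 fell and 1 rose, beside 28.2% and 5.96% of all tested genes. The fallers include Aldh1a3, which makes retinoic acid (150 ± 57.4 to 24.6 ± 19.3 TPM, log2 fold change -2.81 ± 0.49, limma adjusted p = 0.00636), and Rdh10, which makes its precursor (105 ± 17.2 to 51.2 ± 11.5 TPM, -1.03 ± 0.18, limma adjusted p = 0.00616). The riser was the enterocyte retinol-binding protein gene Rbp2 (20.6 ± 5.53 to 44.0 ± 15.3 TPM, 1.04 ± 0.27, limma adjusted p = 0.0196). The receptor gene Rarb fell from 8.07 ± 1.80 to 3.05 ± 1.204 TPM (-1.19 ± 0.24, limma adjusted p = 0.00871).

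Cyp20a1, a P450 of unassigned substrate, fell from 37.1, 29.1, 33.0 and 30.02 TPM to 22.2, 22.6, 23.5 and 21.6 TPM (-0.50 ± 0.11 in log2 units, limma adjusted p = 0.0118). The groups did not overlap. Relative to the median gene the difference was -0.25, and the call ended with trimmed mean (0.0525), quantile (0.0569) and median (0.125) scaling.

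The libraries did not differ in the same way for all risers. DSS + GAA replicate 1 was the lowest of its group for Cyp2c68, Cyp2d12, Cyp2d13, Cyp2d26, Cyp2f2, Cyp2s1, Cyp4f14, Cyp4f40 and Cyp39a1, which is 9 of 30 genes beside 42.9% of all tested genes. DSS + GAA replicate 5 was the highest for the same 9 genes and for 5 more, 14 of 30 beside 28.9% of all tested genes, and replicate 4 was the lowest for 15 of 30 beside 21.7%. For Cyp2d10, Cyp2d34 and Cyp2d9 replicate 1 was instead the highest of its group and replicate 4 the lowest. Cyp2f2 passed as higher without DSS + GAA replicate 1 (limma adjusted p = 0.0143). The 11 markers of small bowel enterocytes had sums between 212 and 366 TPM in DSS, against 361, 516, 626 and 434 TPM in DSS + GAA. Of their 7 tested genes, the ileal bile acid binding protein gene Fabp6 (10.2 to 212 TPM) and 2 others rose and the bile acid transporter gene Slc10a2 (135 to 24.6 TPM) fell, while Sis and Lct, which define the small bowel brush border, were near 0 with means of 0.03 to 0.04 and 0.02 to 0.05 TPM. The part of these regional markers in the P450 values was not tested.

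**Figure D5:**
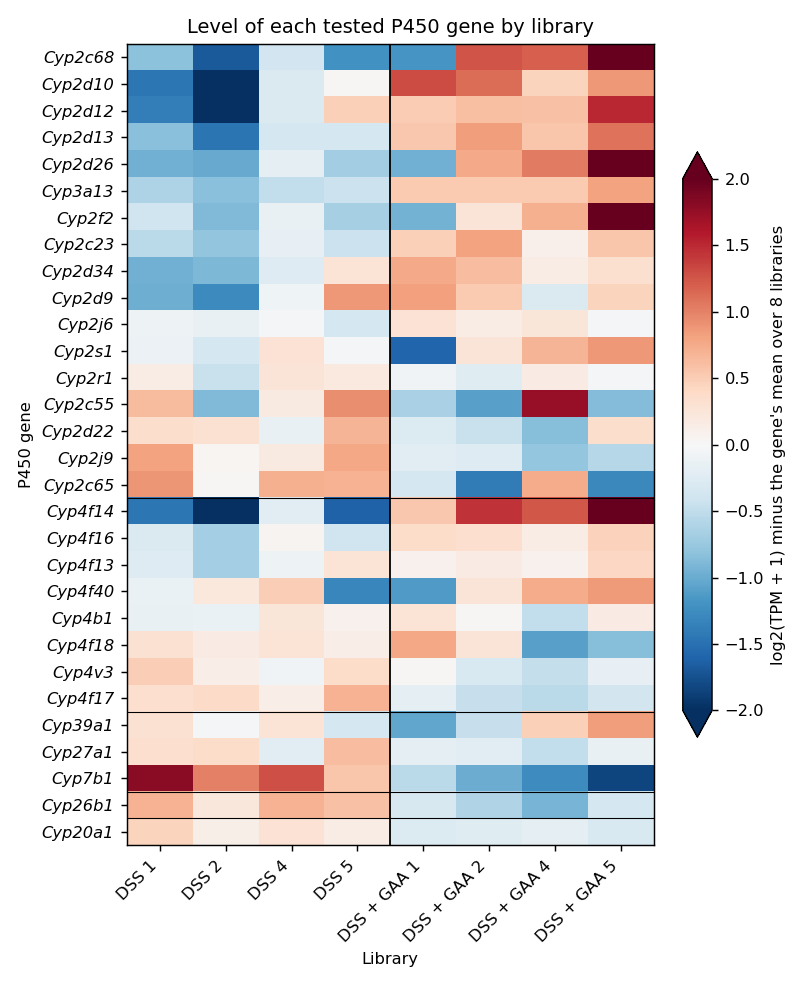
Level of each of the 30 tested P450 genes (rows, grouped by family) in each library (columns), as log2(TPM + 1) minus the gene's mean over the 8 libraries; colours saturate at 2 in either direction. DSS + GAA replicate 1 is blue for Cyp2c68, Cyp2d26, Cyp2f2 and Cyp2s1, in contrast to DSS + GAA replicate 5, and red for Cyp2d10.

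Of the 35 genes left out by the filter, 18 had a mean under 0.1 TPM over the 8 libraries, and 13 reached 1 TPM in at least 1 library. They hold every listed gene of the steroid hormone families 11, 17 and 21. Cyp11b2, the last enzyme of aldosterone synthesis, was at 0.70, 0.26, 0.32 and 2.06 TPM in DSS and at 0.05, 0.05, 0 and 0 TPM in DSS + GAA, and Cyp11b1, the last enzyme of glucocorticoid synthesis, at 0.19, 0.34, 0.05 and 1.03 TPM and at 0.20, 0.05, 0.10 and 0.03 TPM. Cyp46a1, the cholesterol hydroxylase of neurons, was at 1.23, 1.40, 0.87 and 2.32 TPM in DSS and at 0.57, 0.36, 0.06 and 0.32 TPM in DSS + GAA. The groups did not overlap for Cyp46a1 and Cyp11b2, and did for Cyp11b1. In the fit without a filter (4.50% of all genes higher, 23.5% lower), 4 of the 35 passed: Cyp46a1 (log2 fold change -0.87, limma adjusted p = 0.0136), Cyp21a1 (-0.22, limma adjusted p = 0.0406) and Cyp4x1 (-0.40, limma adjusted p = 0.0417) were lower and Cyp2d40 (0.41, limma adjusted p = 0.0393) was higher. The 6 neuron and glia markers all fell, with sums of 303, 297, 217 and 222 TPM in DSS against 141, 89.3, 49.8 and 53.6 TPM in DSS + GAA. Within DSS they did not follow Cyp46a1, which was highest in replicate 5, where the marker sum was near its lowest. Within DSS + GAA the marker sum and Cyp46a1 both ranked replicates 1, 2, 5 and 4 from highest to lowest. The part of these markers in the Cyp46a1 values was not tested.

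Some low values came from 1 library. Cyp2e1, an ethanol-oxidising enzyme of liver and fat, was at 5.70 TPM in DSS replicate 4, at 0.76 TPM in DSS replicate 1, at 0.17 TPM in DSS + GAA replicate 2, and was listed at 0 in the other 5 libraries. Of the 5 adipocyte markers, Cfd, Adipoq, Plin1 and Lep were also highest in DSS replicate 4, at 57.6, 9.53, 0.96 and 0.44 TPM. Cidec, the only 1 tested, was highest in DSS + GAA replicate 1, at 34.8 TPM beside 15.1 TPM in DSS replicate 4. The hepatocyte gene Alb had means of 0.13 and 0.20 TPM in the 2 groups. Fga and Fgb were highest in DSS replicate 1, at 3.04 and 2.15 TPM, and Ttr in DSS + GAA replicate 5, at 25.6 TPM. The part of fat or liver tissue in the Cyp2e1 values was not tested. Cyp2w1 was listed at 0 in all DSS libraries and in DSS + GAA replicate 1, and was at 0.30, 0.38 and 2.39 TPM in DSS + GAA replicates 2, 4 and 5. The tested genes not yet given, Cyp2f2, Cyp2r1 (the vitamin D hydroxylase) and Cyp4b1, had means over all libraries of 1.89, 1.83 and 1.33 TPM and did not pass.

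The genes that serve P450 enzymes were counted from lists. Of 9 tested electron donor genes, 0 rose and 3 fell in limma (5.96% and 28.2% of all genes). Por, the reductase that feeds every P450 of the endoplasmic reticulum, fell from 67.0, 69.8, 64.3 and 59.2 TPM to 44.7, 39.2, 30.4 and 38.4 TPM (-0.76 ± 0.13 in log2 units, limma adjusted p = 0.00616). Its groups did not overlap, while the summed P450 level was higher in DSS + GAA. The other fallers were Cyb5r3 (-0.57 ± 0.15) and Pgrmc2 (-0.31 ± 0.10), and the most abundant gene of the list, Pgrmc1, was at 176 ± 10.8 and 143 ± 11.04 TPM and did not pass. Of 8 haem synthesis genes, 1 fell, Fech (-0.47 ± 0.16), and the most abundant, Alas1, was at 62.6 ± 3.43 and 49.4 ± 8.06 TPM and did not pass.

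Of the 20 listed nuclear receptor genes, 17 were tested, 5 rose and 1 (Rarb) fell, beside 5.96% and 28.2% of all tested genes. Besides Hnf4a, the risers were the vitamin D receptor gene Vdr (50.6 ± 8.99 to 127 ± 41.0 TPM, log2 fold change 1.26 ± 0.25, limma adjusted p = 0.00824), Ppard (37.6 ± 5.83 to 56.5 ± 6.48 TPM, 0.58 ± 0.14, limma adjusted p = 0.0157), the xenobiotic receptor PXR gene Nr1i2 (48.7 ± 8.89 to 72.5 ± 9.25 TPM, 0.57 ± 0.15, limma adjusted p = 0.0207) and the oxysterol receptor gene Nr1h3 (9.23 ± 3.56 to 17.04 ± 4.09 TPM, 0.87 ± 0.30, limma adjusted p = 0.0477). In the epoxide and leukotriene list 1 of 8 tested genes fell, Ephx1 (-0.58 ± 0.20, limma adjusted p = 0.0475), which opens the epoxides of xenobiotics, and the most abundant, Lta4h, was at 88.1 ± 11.997 and 99.98 ± 22.2 TPM and did not pass. In the steroid list 1 of 7 tested genes rose, Hsd11b2, which inactivates corticosterone (73.2 ± 30.6 to 151 ± 58.7 TPM, 1.04 ± 0.34, limma adjusted p = 0.0403), and 1 fell, Hsd11b1, which regenerates it (42.5 ± 12.5 to 16.6 ± 12.01 TPM, -1.53 ± 0.45, limma adjusted p = 0.0289). The P450 genes Cyp51, Ptgis and Tbxas1, whose symbols lack the pattern used here, did not pass. Among these partner genes the calls of Por, Hnf4a, Vdr, Rarb, Aldh1a3, Rdh10 and Ch25h held under all 18 alternatives. Those of Cyb5r3, Pgrmc2, Fech, Ephx1 and Hsd11b1 ended under each of the 3 other scalings, with limma adjusted p-values up to 0.134, 0.966, 0.414, 0.316 and 0.0898 over all alternatives. Leaving out single libraries ended the calls of Nr1i2, Ppard, Nr1h3, Rbp2 and Hsd11b2, with values up to 0.0676, 0.0536, 0.106, 0.0546 and 0.101.

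In the authors' deposited table, with false discovery rates under 0.05 taken as calls, 21 of the 65 genes are higher and 13 lower, beside 10.3% and 16.2% of all listed genes. Among the 30 tested genes it calls 12 higher and 4 lower, of which 9 and 3 were called the same way here and 0 in opposite directions. Its further calls among the tested genes were Cyp2d26, Cyp2d9 and Cyp2f2 as higher and Cyp2c65 as lower, and Cyp4f17, Cyp20a1 and Cyp27a1 were not among its calls.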

How the data were processed

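RNA of mouse colon was sequenced in 8 libraries. The authors deposited TPM of each gene in each library in a single table. It also holds the authors' log2 fold changes of DSS + GAA over DSS with their p-values and false discovery rates, whose test the sources used here do not give. The submitters' processing notes name the build mm10 and, without roles, edgeR, GATK, SAMtools, Subread, featureCounts, Bowtie2, HISAT2 and Trimmomatic. TPM keeps no depth, so depth is unknown and no interval or detection floor was given. Neither the sharing of reads between near-identical genes nor the use of strand is given there.

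Genes with at least 1 TPM in at least 4 of 8 libraries (14217 of 18262) were compared on log2(TPM + 1), which understates the change of low genes, by limma 3.58.1 (R 4.3.3, statmod 1.5.0) with robust empirical Bayes and a variance trend, and with group as the only term. Two-sided p-values were adjusted over all tested genes with the Benjamini-Hochberg method. Errors of TPM are SD (n = 4) and those of log2 fold changes standard errors. The test was checked on simulated data.

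The members, gene lists and marker lists were chosen with earlier results of these data known, and the lists support no direction on their own. Named were all members that passed, the 12 most abundant tested members that did not, and, per list, passing genes (at most 4 by p) and the most abundant; genes named otherwise were chosen after their values were seen. A summed level has no test. Of the 65 members, 64 matched a GENCODE vM21 gene; Cyp2d13 did not and has no position here. Alternatives were other pseudocounts, filters and scalings, plain empirical Bayes, array quality weights, a replicate block and leaving out each library; apart from the filters, the genes tested were kept fixed. Promoters and motifs were read from RefSeq windows.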

Additional observations from a re-analysis of the deposited data

Results flagged for a closer look

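In DSS + GAA, 3 P450 genes had 1 library far above the other 3. Cyp2c55 was highest in replicate 4, where the gap to the next library took up 0.941 of the range of the group. For Cyp2d12 the highest was replicate 5, with 0.937 of the range, and for Cyp3a13 also replicate 5, with 0.984. All 3 exceed the critical value of the test of Dixon at the 95% level. In all 60 groups of 4 were checked, 2 for each of 30 genes, and chance alone gives about 3. Cyp3a13 kept its call without replicate 5, Cyp2d12 had an adjusted p of 0.0758 in limma, and Cyp2c55 was not called with or without replicate 4.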

How the results depend on the processing

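Depth is unknown, and with 4 libraries per group the spread between libraries limits what can be called. Over the 18 alternatives no called P450 gene changed sign. The number of genes called higher stayed between 6 and 12 and the number called lower between 2 and 9. It was 2 lower under quantile normalization and 2 under median centring, which shift the median of all tested genes from -0.25 to 0.02 and 0.05 on the log2 scale; trimmed mean scaling shifts it to -0.04. Leaving out 1 library at a time gave 6 to 11 higher and 4 to 7 lower. Cyp2c23, Cyp2d10, Cyp2d13, Cyp3a13, Cyp4f14, Cyp4f16, Cyp7b1 and Cyp26b1 kept their calls wherever they were tested. The replicate block gave 8 higher and 9 lower; under it Cyp2d34 and Cyp2c68 were not called, and Cyp2d26 as higher and Cyp2d22, Cyp2c65 and Cyp4v3 as lower were. Whether the numbers pair the libraries is not known, as the labels tie no number to a shared litter or day. Deviations of same-numbered libraries correlated at 0.180, -0.109, 0.146 and -0.0302, and those of other pairs at -0.167 to 0.146. These correlations cannot decide it, because deviations within a group cancel out. Sign changes were limited to 5 genes that were not called. Under trimmed mean scaling, quantile normalization and median centring the log2 fold changes were 0.068, 0.32 and 0.22 for Cyp2r1, 0.12, 0.39 and 0.28 for Cyp4b1 and 0.12, 0.22 and 0.21 for Cyp39a1. Leaving out 1 library gave -0.16 to 0.65 for Cyp2s1, -0.11 to 0.14 for Cyp4b1, -0.0083 to 0.80 for Cyp4f40 and -0.39 to 0.24 for Cyp39a1. The cause was not tested.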
